A study of Mus musculus with 22 samples.

Results

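Hypothalamic gene expression was compared between mice killed 14 days and mice killed 10 days after they received a tumour, the step from the early to the middle of the 3 days studied. The members were the 12 arrays of tumour-bearing mice with these days in their titles, 7 of day 14 and 5 of day 10, of 22 arrays in the series, and the 4 controls were not used in the difference. Each of 18820 genes was represented by the probe set, among those naming 1 gene, with the highest mean over all 22 arrays. The series concerns food intake and hypothalamic serotonin signalling in mice with Lewis lung carcinoma, a transplantable mouse tumour. Hypothalami of all groups were profiled with 1 array per mouse, on RNA with an integrity number above 8.

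Both groups were male C57BL/6 mice, inoculated at 6 weeks of age and housed singly with free access to food. Under general anaesthesia each mouse received 500000 tumour cells, taken from growing tumours, in a hind leg muscle, and the mice were anaesthetised with ketamine and xylazine before the hypothalamus was removed. The groups shared strain, sex, tumour and anaesthesia and differed in the day, so the day 14 mice carried the tumour longer and were also older by the same days. No genetic alteration of the host is named. Day 10 had no control mice of its own, and differences between the days therefore cannot be told apart from differences in age. The hour of dissection was not given in the sources used here.

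Immediate early genes are transcribed within minutes of a stimulus without new protein synthesis, and in neurons they follow synaptic activity, hormones and stress. Among them the NR4A genes encode orphan nuclear receptors (Nr4a1, also called Nur77, Nr4a2, also called Nurr1, and Nr4a3, also called Nor1), and Fos, Fosb, Jun and Junb encode subunits of the transcription factor AP-1. The hypothalamus reads the state of the body's energy stores through neurons that make appetite-stimulating peptides such as NPY or appetite-reducing peptides such as those cut from the POMC precursor, and inflammatory signals from a tumour are known to act on these circuits.

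The start-site windows of the 3 NR4A genes and of Fosb are shown because Nr4a3 passed the threshold over all genes. The others belong to the same group of immediate early genes. The windows, from RefSeq on GRCm38.p6, run from 250 bases before to 50 bases after each gene's start and are printed 5′ to 3′ on the gene's own strand. Capitals mark TGACG or its reverse complement CGTCA, the core of the cAMP response element bound by CREB, searched on both strands.
Nr4a3: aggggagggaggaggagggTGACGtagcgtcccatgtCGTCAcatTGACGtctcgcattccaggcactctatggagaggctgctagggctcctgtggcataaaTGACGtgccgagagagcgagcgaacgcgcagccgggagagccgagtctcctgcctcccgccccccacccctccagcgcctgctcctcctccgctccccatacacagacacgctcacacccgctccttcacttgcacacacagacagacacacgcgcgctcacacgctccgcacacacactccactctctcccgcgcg
Nr4a2: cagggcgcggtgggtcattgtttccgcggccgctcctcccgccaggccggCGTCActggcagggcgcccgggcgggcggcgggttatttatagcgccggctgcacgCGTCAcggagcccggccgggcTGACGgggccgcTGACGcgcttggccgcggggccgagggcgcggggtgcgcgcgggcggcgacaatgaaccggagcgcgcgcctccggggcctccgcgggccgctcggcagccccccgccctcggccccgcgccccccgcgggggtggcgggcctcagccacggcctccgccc
Nr4a1: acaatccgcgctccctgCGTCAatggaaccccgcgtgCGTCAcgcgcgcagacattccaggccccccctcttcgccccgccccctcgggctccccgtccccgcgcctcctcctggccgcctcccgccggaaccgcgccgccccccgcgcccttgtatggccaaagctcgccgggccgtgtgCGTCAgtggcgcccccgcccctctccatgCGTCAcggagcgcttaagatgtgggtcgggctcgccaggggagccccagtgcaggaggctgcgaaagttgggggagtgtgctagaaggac
Fosb: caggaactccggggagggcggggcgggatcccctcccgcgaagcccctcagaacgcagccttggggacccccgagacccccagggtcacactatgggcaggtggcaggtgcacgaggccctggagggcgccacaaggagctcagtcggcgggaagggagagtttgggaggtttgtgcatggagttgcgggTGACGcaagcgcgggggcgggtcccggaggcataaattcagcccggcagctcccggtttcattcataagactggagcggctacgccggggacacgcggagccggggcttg
The Nr4a3 window lies at chr4:48045055-48045354 on the plus strand, that of Nr4a2 at chr2:57123954-57124253 on the minus strand, that of Nr4a1 at chr15:101266596-101266895 on the plus strand and that of Fosb at chr7:19309996-19310295 on the minus strand. Each NR4A window held 4 core sites and the Fosb window held 1, and none of these windows held the full palindrome TGACGTCA, in which both cores overlap. Among all 32851 windows of the same length, 20.8% held a core site, 1.79% held the full site and 0.231% (76 windows) held at least 4 core sites. Of the 40 immediate early genes measured, 30 had a window in the table, and 21 of these (70%) held a core site, against 23.1% of all genes with a window. A match describes the letters only.

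Nr4a3 was the 1 gene whose difference between the days passed the threshold over all genes. It fell by 0.67 ± 0.09 on the log2 scale (SE, n = 7 and 5, 95% interval -0.86 to -0.48, limma adjusted p = 0.00369 over all genes). In the 5 mice of day 10, replicates 1 to 5, its log2 level was 6.14, 6.15, 6.22, 5.98 and 6.00. In the 7 mice of day 14 the lowest level was 5.26, the median 5.32 and the highest 5.87. Every mouse of day 14 lay below every mouse of day 10, and the highest day 14 mouse, replicate 6, was followed by replicate 2 at 5.59. The group means were 6.10 ± 0.11 on day 10 and 5.43 ± 0.22 on day 14 (SD). An exact permutation test over all 792 splits of the 12 mice into 5 and 7, two-sided, gave p = 0.00253 for Nr4a3 (adjusted p = 0.0202 over the 8 genes tested this way, the smallest p the design allows being 0.00126). The 8 genes were chosen with earlier results of these data known, so this p is not independent evidence.

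This was 1 gene called of 18820 (0.00531%) at a limma adjusted p below 0.05. The call depended on how the spread was estimated: all 22 arrays entered the fit, and with only the 12 arrays of the 2 days limma gave Nr4a3 the same difference with an adjusted p of 0.167 and called 0 genes, with 1184 genes at an unadjusted p below 0.05. With the 18 tumour-bearing arrays the adjusted p was 0.0226, and with any single array left out it ran from 2.02e-05 to 0.0298. The samples fall into 2 runs of accession numbers, which could be a batch although the labels name none, with 2 day 10 and 3 day 14 mice in the earlier run and 3 and 4 in the later run. Within them the Nr4a3 difference was -0.76 (adjusted p = 0.796) and -0.61 (adjusted p = 0.457), and with a term for the run it was -0.67 (limma adjusted p = 0.00647). By p, Nr4a3 ranked 1 among all genes in the earlier run alone and 20 in the later run alone.

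**Figure D1:**
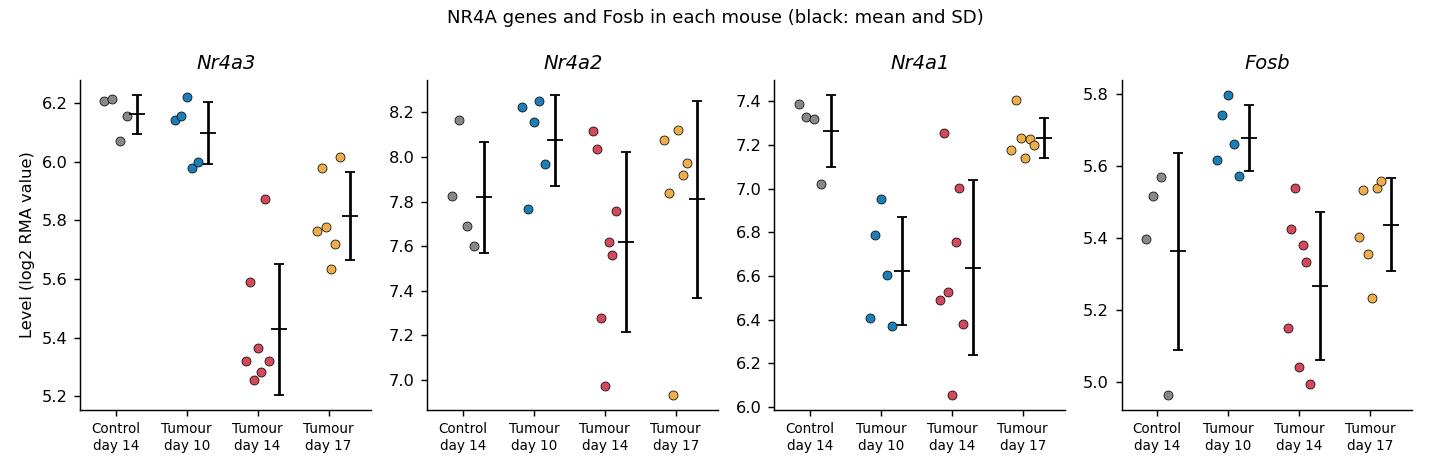
Log2 levels of Nr4a3, Nr4a2, Nr4a1 and Fosb (vertical axes, each with its own range that does not start at 0) in every mouse of the 4 groups, with black marks for the group mean and SD. For Nr4a3 the 7 mice of tumour day 14 lie between 5.26 and 5.87, below the 5 mice of tumour day 10, which lie between 5.98 and 6.22, and the 6 mice of day 17 lie between 5.63 and 6.02.

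The later level of Nr4a3 lay between the others. On day 17 the lowest of 6 mice was 5.63, the median 5.77 and the highest 6.02, with a mean of 5.81 ± 0.15 (SD), and the 4 controls of day 14 had a mean of 6.16 ± 0.07 (SD). The step from day 10 to day 14 differed from the step from day 14 to day 17 by -1.06 ± 0.15 (SE, limma adjusted p = 0.00790), the first step being downward and the second upward. The steps share the day 14 mice, so a low day 14 level enters both, and they last 4 and 3 days. Nr4a3 was the 1 gene of 18820 (0.00531%) for which this difference was called. With array weights the count was 0, with 1154 genes at an unadjusted p below 0.05. The smallest limma adjusted p over all genes was then 0.0975.

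The other NR4A genes did not pass the test. Nr4a2 was at 8.22, 7.77, 8.16, 8.25 and 7.97 in the 5 mice of day 10 and had a lowest value of 6.97, a median of 7.62 and a highest value of 8.12 on day 14. The groups overlapped, and the difference of -0.45 ± 0.19 (SE, limma adjusted p = 0.630) was not called. Its exact permutation p was 0.0442 (adjusted p = 0.172 over 8 genes), and its difference was -0.19 in the earlier and -0.65 in the later run of accessions. Nr4a1 was at 6.41, 6.79, 6.95, 6.60 and 6.37 on day 10 and ran from 6.06 through a median of 6.53 to 7.26 on day 14. Its ranges lay over each other, the difference was 0.01 ± 0.15 (SE, 95% interval -0.29 to 0.32), and its sign changed with single mice left out. For Nr4a1, the interval leaves room for a change in either direction that is smaller than the Nr4a3 difference.

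The immediate early genes as a list had lower values on average on day 14. Of 40 measured genes, 14 were lower and 0 higher at an unadjusted p below 0.05 in the limma fit, against 769 of 18820 genes (4.09%) lower and 572 (3.04%) higher. The mean was lower in 26 of 40, against 10072 of 18820 genes (53.5%), and the median difference was -0.05, against -0.01 over all genes. With single arrays left out the list's median ran from -0.09, without day 14 replicate 1, to -0.02, without day 14 replicate 7, and was -0.03 without day 10 replicate 1. Apart from Nr4a3, none of the 40 was called, and the smallest adjusted p of the others was 0.516. The groups did not overlap, with day 14 lower, for 3 of the 40 (Nr4a3, Fosb and Homer1) and with day 14 higher for 0, against 38 (0.202%) and 37 (0.197%) of 18820 genes. The list mean ran from 5.78 to 5.89 in the mice of day 10 and from 5.57 to 5.81 on day 14. The groups overlapped through day 14 replicate 2. Day 14 replicate 4 was the lowest of its day in the list mean and for Fos, Egr1, Fosl2, Nr4a2 and Nr4a1. The members thus shared differences between mice, and the 14 genes are not independent of each other. The list was chosen with earlier results of these data known, and no test of it was made.

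Fosb, an AP-1 subunit, was at 5.61, 5.74, 5.80, 5.66 and 5.57 on day 10. On day 14 it had a lowest value of 4.99, a median of 5.33 and a highest value of 5.54. All 7 mice of day 14 lay below those of day 10, and the difference was -0.41 ± 0.10 (SE, limma adjusted p = 0.516). Egr1, a zinc finger transcription factor induced by neuronal activity, was at 7.01, 7.36, 7.15, 7.09 and 7.19 on day 10 and ran from 6.24 through a median of 6.55 to 7.22 on day 14. Its groups overlapped through 2 mice of day 14, replicates 2 and 6, and the difference was -0.48 ± 0.13 (SE, limma adjusted p = 0.516). Fosl2, also an AP-1 subunit, differed by -0.30 ± 0.09 (SE). The Fosb mean was 5.36 in the controls, 5.68 on day 10, 5.27 on day 14 and 5.44 on day 17. For Egr1 these means were 7.33, 7.16, 6.68 and 7.14, and for Fosl2 6.05, 6.21, 5.90 and 6.05.

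The remaining 10 of the 14 genes include Nr4a2, and the other 9 are named after their values were seen. Fos was at 5.22, 5.71, 5.67, 5.50 and 5.35 on day 10 and ran from 4.22 through a median of 5.09 to 5.75 on day 14, so that its groups overlapped and the difference was -0.48 ± 0.18 (SE). The other AP-1 subunits Junb (-0.26 ± 0.08, SE) and Jun (-0.17 ± 0.06, SE) and the zinc finger genes Egr3 (-0.32 ± 0.11), Egr2 (-0.26 ± 0.09), Klf2 (-0.24 ± 0.11) and Klf10 (-0.17 ± 0.08) had smaller differences. Homer1, a scaffold protein of the synapse with an activity-induced short form, was at 7.34 to 7.43 on day 10 and at 7.05 to 7.31 on day 14, a difference of -0.17 ± 0.06 (SE). The groups did not overlap. Sik1, a kinase induced by cAMP, differed by -0.15 ± 0.06 (SE).

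Other members of the list had small differences. Arc, which encodes a synaptic protein, differed by 0.06, Npas4, a factor specific to neuronal activity, by 0.10, and the phosphatase gene Dusp1 by 0.01, each with a 95% interval that included 0. For the list, 11 to 14 genes were lower at an unadjusted p below 0.05 with any single array left out, 9 in the earlier run alone and 10 in the later run alone. Without 3 arrays that stood apart in other measures (day 10 replicates 3 and 4 and day 14 replicate 2) the count was 12. These 3 were chosen after seeing the data. Day 10 replicate 5 and day 14 replicate 3, each also marked in a measure, stayed in the fit. For the difference of the steps, 9 of 40 were lower and 0 higher at an unadjusted p below 0.05, against 475 (2.52%) and 428 (2.27%) of 18820 genes, 903 (4.8%) in both directions.

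**Figure D2:**
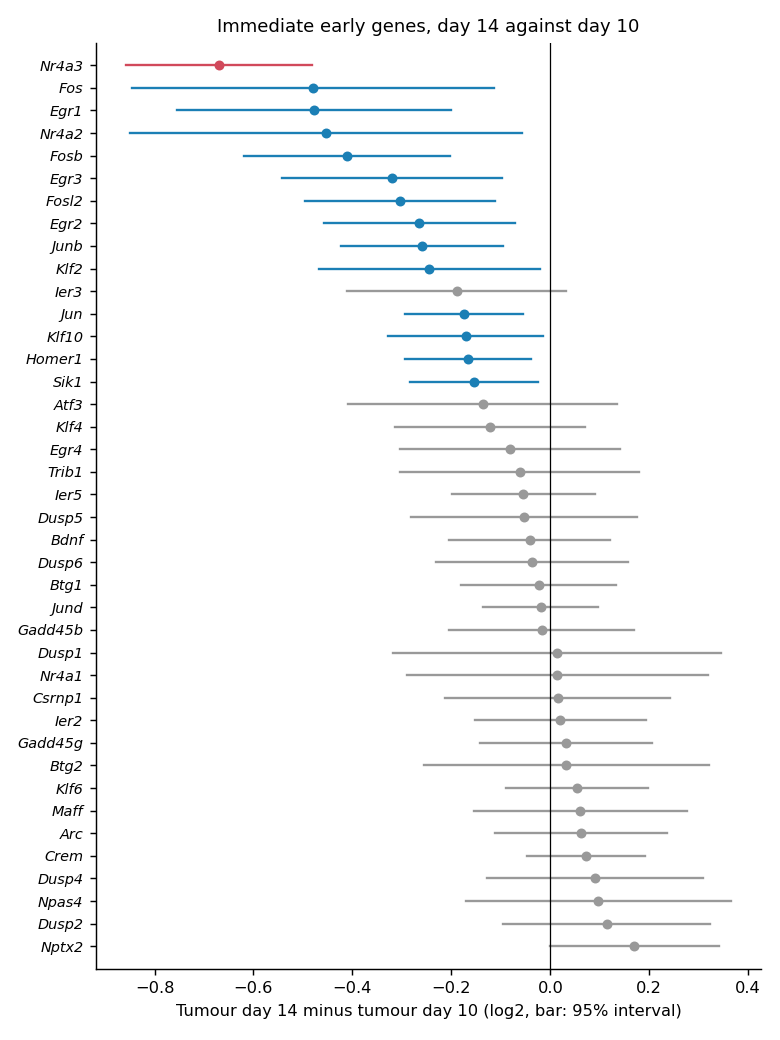
Day 14 minus day 10 (log2) of the 40 measured immediate early genes, each with its 95% interval from the limma fit. Nr4a3 (red) is the gene called, blue marks the other 13 with an unadjusted p below 0.05, all of them lower on day 14, and grey marks the 26 others, 14 of which have a higher mean on day 14.

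Across all genes the differences were small. The 95% interval lay within 0.5 either way on the log2 scale for 18319 of 18820 genes (97.3%), and the median SE was 0.075. A difference above 0.5 was measured for 16 genes, 10 higher and 6 lower, and above 1 for 0. At an unadjusted p below 0.05 there were 1341 genes (7.13%), where 941 would be expected with no difference at all.

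Among the 12 genes with the smallest p that were higher on day 14, none was called (limma adjusted p = 0.516 for each). Bard1, the partner of the DNA repair protein BRCA1, was at 4.25, 4.22, 4.22, 4.38 and 4.11 on day 10 and ran from 4.39 through 4.52 to 4.56 on day 14. The groups did not overlap, and the difference was 0.25 ± 0.06 (SE). The groups also did not overlap for Oacyl (0.33 ± 0.08), a little characterised acyltransferase gene, for Tnfsf13b (0.30 ± 0.08), which encodes the B cell survival factor BAFF, for Myl7 (0.44 ± 0.11), the atrial myosin light chain, and for the zinc finger gene Zfp300 (0.25 ± 0.07). Apoc1, an apolipoprotein gene, had the largest difference of the 12, 0.46 ± 0.12 (SE), with 1 mouse of day 14 at 6.24 among day 10 values of 6.12 to 6.57. The other genes were Tapbpl (0.32), a relative of the peptide-loading protein tapasin, Zc3h6 (0.28), Tmem53 (0.27), Zfp687 (0.21), Krtap4-2 (0.20) and Ncapd2 (0.20), a condensin subunit.

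The 12 genes with the smallest p that were lower on day 14 began with Nr4a3, and the others had a limma adjusted p of 0.516. Psmb8, an immunoproteasome subunit, was at 3.92, 3.84, 3.83, 3.77 and 3.68 on day 10 and ran from 3.20 through 3.46 to 3.69 on day 14, a difference of -0.35 ± 0.08 (SE) with 1 mouse overlapping and levels under the background of 3.87 for most mice. Sting1, the receptor of cytosolic DNA signalling, was at 5.72, 5.61, 5.19, 5.25 and 5.30 on day 10 and ran from 4.86 through 5.11 to 5.18 on day 14. Its groups did not overlap and differed by -0.37 ± 0.08 (SE), by -0.69 in the earlier and -0.15 in the later run of accessions. Ifi207 (-0.48 ± 0.12), an interferon-induced gene, and Oas2 (-0.34 ± 0.08), an interferon-induced sensor of double-stranded RNA, overlapped between the groups.

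Hes5, a target of Notch signalling, was at 6.60, 6.54, 6.51, 6.31 and 6.29 on day 10 and ran from 5.82 through 6.11 to 6.28 on day 14, without overlap and with a difference of -0.35 ± 0.08 (SE). The other genes were Fosb, described above, Erdr1 (-0.48), Trpv5 (-0.36), Glrp1 (-0.36), the homeobox gene Hmx1 (-0.29) and Tspan15 (-0.23). The groups did not overlap for Trpv5, Glrp1 and Hmx1, whose mean levels were below the background.

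**Figure D3:**
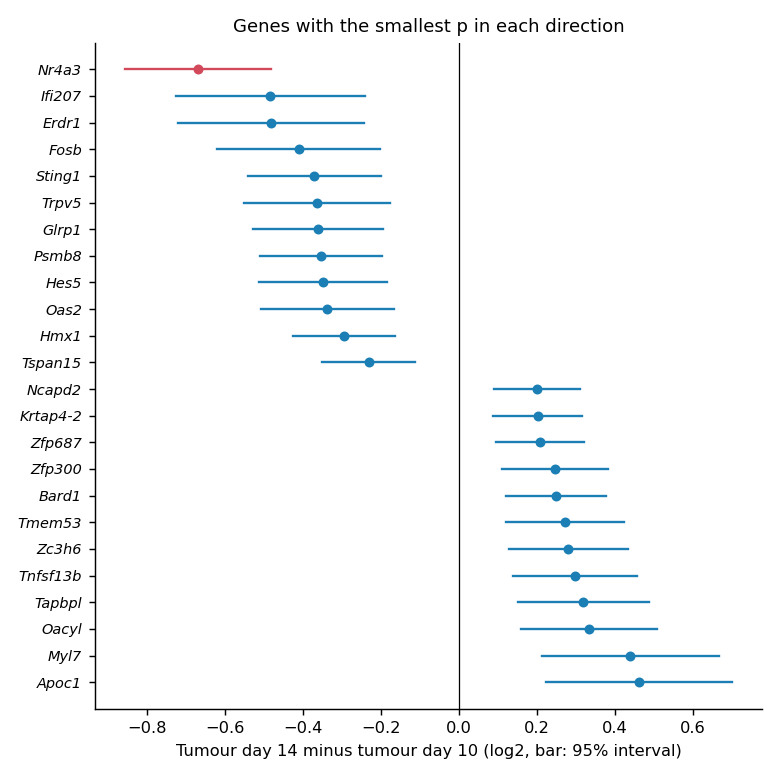
Day 14 minus day 10 (log2) with 95% intervals from the limma fit for the 12 genes with the smallest p in each direction. Nr4a3 (red, -0.67) is the gene called, and the 23 others (blue) share an adjusted p of 0.516 and range from -0.48 to 0.46.

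Peptides of feeding were not called. Npy, the appetite-stimulating neuropeptide Y, was at 8.43, 8.66, 9.48, 8.89 and 8.44 on day 10 and had a lowest value of 8.86, a median of 9.14 and a highest value of 9.76 on day 14. The groups overlapped through day 10 replicates 3 and 4, and the difference was 0.45 ± 0.22 (SE, limma adjusted p = 0.701). Its exact permutation p was 0.0644 (adjusted p = 0.172 over 8 genes), and without day 10 replicate 3 the difference was 0.63 with an exact permutation adjusted p of 0.0364. Pomc, the precursor of appetite-reducing melanocortins, was at 5.48, 5.41, 5.81, 4.84 and 5.25 on day 10 and ran from 5.24 through 5.57 to 6.10 on day 14, a difference of 0.32 ± 0.19 (SE) with overlapping groups and an exact permutation p of 0.131 (adjusted p = 0.263). Without day 10 replicate 4 the Pomc difference was 0.19, with an exact permutation adjusted p of 0.618.

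Hcrt, which encodes the orexins, differed by 0.03 ± 0.19 (SE), and Cartpt, the CART peptide gene, by -0.03 ± 0.13 (SE), and each changed sign with single mice left out. In Hcrt 1 mouse of each day stood low, day 10 replicate 3 at 9.17 and day 14 replicate 3 at 9.33, while the other 10 lay between 9.97 and 10.55. Of 8 appetite-stimulating peptide genes measured, 3 were higher at an unadjusted p below 0.05 and 0 lower, and the median difference was 0.17. Over all genes the shares were 3.04% higher and 4.09% lower. The 3 genes were Gal (galanin, 0.32 ± 0.11), Penk (proenkephalin, 0.17 ± 0.06) and Qrfp (0.26 ± 0.12, SE), each with overlapping groups. The count was 5 without day 14 replicate 1 or day 10 replicate 3, and 1 in the earlier run alone. Of 17 appetite-reducing peptide genes, 2 were higher (Crh, corticotropin-releasing hormone, 0.25 ± 0.10, at levels below the background, and Nmu, neuromedin U, 0.18 ± 0.08, SE) and 0 lower, with a median of 0.10. That count was 1 without day 10 replicate 4 or day 14 replicate 6.

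Of 21 receptors and signalling genes of feeding and metabolism, 2 were higher, Glp1r (0.17 ± 0.08) and the insulin receptor gene Insr (0.14 ± 0.06, SE), and 0 lower, with a median of 0.09. Without day 10 replicate 1 or day 14 replicate 7 the count was 0, without day 14 replicates 3 or 5 it was 1, and without day 10 replicate 3 or day 14 replicates 2 or 6 it was 4. Ghsr, the ghrelin receptor gene, differed by 0.15 ± 0.07 (SE), with overlapping groups. Of 23 neuroendocrine genes, 4 were higher and 0 lower, with a median of 0.08. Otp, a transcription factor of neuroendocrine neurons, was at 6.02, 6.07, 6.29, 5.99 and 6.27 on day 10 and ran from 6.28 through 6.34 to 6.47 on day 14, a difference of 0.22 ± 0.07 (SE) with 1 mouse overlapping. Ghrh, growth hormone-releasing hormone, was at 7.23, 7.42, 7.74, 7.46 and 7.22 on day 10 and ran from 7.48 through 7.77 to 8.06 on day 14, a difference of 0.35 ± 0.11 (SE). The others were Tac2 (0.23) and Crh, which was also counted among the appetite-reducing peptide genes. At an unadjusted p below 0.05, used for both lists, 3.04% of all genes were higher and 4.09% lower.

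The serotonin genes that the series' title names were lower in 9 and higher in 12 of 21 measured, with 0 past an unadjusted p of 0.05 in either direction and a median of 0.03. The limma fit to the 12 arrays alone put 1 of them higher past it, the earlier run alone 1 and the later run alone 3. Tph2, the neuronal enzyme that starts serotonin synthesis, was at 3.04 to 3.35 on day 10 and 2.91 to 3.34 on day 14, below the background in both. The receptor genes Htr7 (0.15 ± 0.07, SE, 95% interval -0.00 to 0.30) and Htr2c (-0.12 ± 0.10, SE, 95% interval -0.32 to 0.09) had the smallest p among those above background together with Htr4 (0.09 ± 0.06, SE). The intervals of Htr7, Htr2c and Htr4 lay within 0.5 either way.

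**Figure D4:**
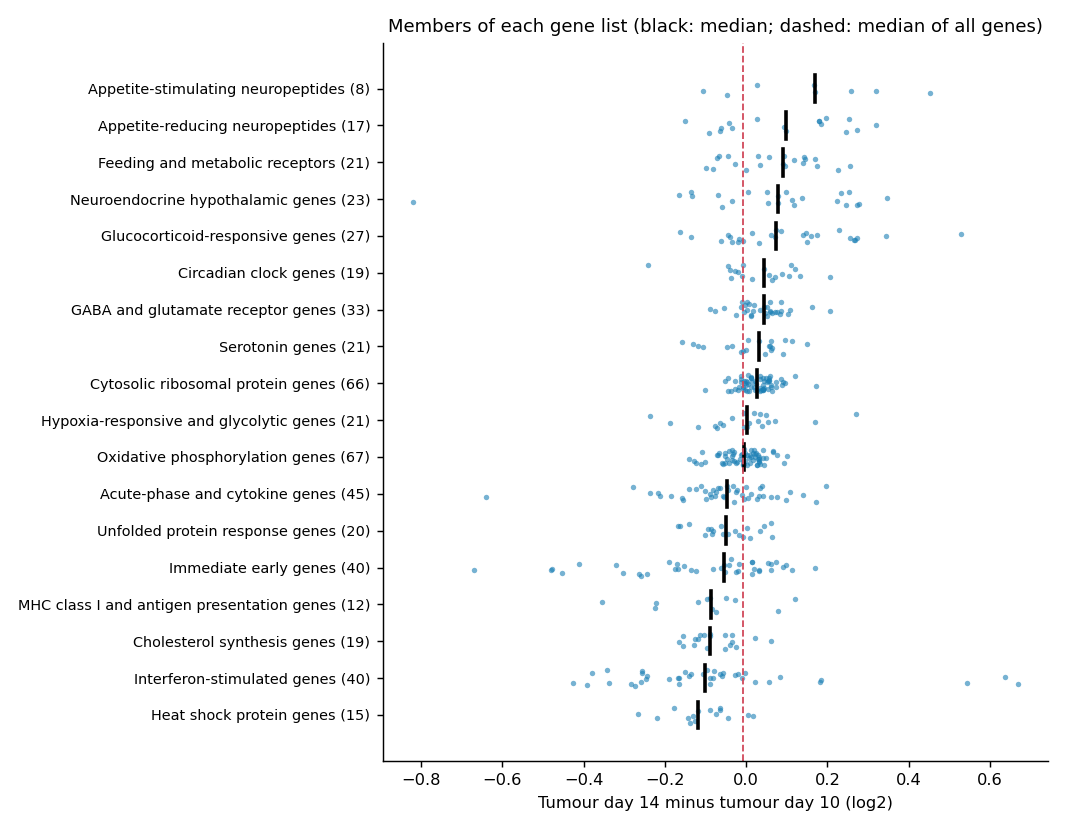
Day 14 minus day 10 (log2) of the measured members of 18 gene lists, 1 point per gene, with the number of members in brackets, a black bar at each list's median and a dashed line at the median of all genes (-0.01). The medians run from 0.17 (appetite-stimulating neuropeptides) to -0.12 (heat shock protein genes), and the immediate early genes extend to -0.67 (Nr4a3).

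Inflammatory and interferon-induced genes had values in both directions. Of 40 interferon-stimulated genes, 8 were lower and 4 higher at an unadjusted p below 0.05, against 4.09% and 3.04% of all genes. A lower mean was measured in 32 of the 40, against 53.5% of all genes, and the list's median was -0.10. The lower genes included Oas2, Iigp1 (an interferon-inducible GTPase, -0.39 ± 0.14) and, named after their values were seen, the chemokine genes Cxcl10 (-0.38 ± 0.15) and Cxcl9 (-0.43 ± 0.20, SE). The higher genes were Isg20 (0.64 ± 0.21), an exonuclease, Ube2l6 (0.54 ± 0.21), the enzyme that attaches ISG15, and, named after their values were seen, Rsad2 (0.67 ± 0.29), the antiviral protein viperin, and Ifit2 (0.18 ± 0.09, SE). The count of lower genes was 3 without day 10 replicate 2 or day 14 replicate 4, 4 without day 10 replicate 4 or day 14 replicates 6 or 7, 5 without day 14 replicate 2, and at most 12, and that of higher genes was 1 without day 10 replicate 1 and 2 without day 14 replicates 1 or 5. In the earlier run 3 were lower and 3 higher, and in the later run 7 and 0.

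Of 12 genes of MHC class I and antigen presentation, 2 were lower (Psmb8, and H2-K1 by -0.22 ± 0.11, SE) and 0 higher, with a median of -0.09. The count was 1 without any one of day 10 replicates 2 or 4, day 14 replicates 2, 4, 6 or 7, day 17 replicates 1, 2 or 4 or control replicates 2 or 3, and at most 3 with any other array left out. Of 45 acute-phase and cytokine genes, 6 were lower and 1 higher, with a median of -0.05. At an unadjusted p below 0.05, used for both lists, 4.09% of all genes were lower and 3.04% higher. Ptgs2, the inducible cyclooxygenase, was at 6.13, 6.01, 5.34, 6.09 and 5.88 on day 10 and ran from 4.78 through 5.21 to 6.03 on day 14. Its groups overlapped, and the difference was -0.64 ± 0.18 (SE, limma adjusted p = 0.516). Bcl3, a regulator of NF-kB (-0.28 ± 0.09), Il1rn, the interleukin 1 receptor antagonist (-0.21 ± 0.07), and the acute-phase gene Saa3 (-0.22 ± 0.09, SE) were also among the lower genes, the last pair below the background. Lcn2, the acute-phase protein lipocalin 2, ranged from 5.22 to 7.05 on day 10 and from 5.22 to 7.32 on day 14, a difference of 0.06 ± 0.34 (SE) whose sign changed with single mice left out.

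In the lists of stress and metabolism, heat shock and cholesterol synthesis genes had mostly lower means on day 14 and glucocorticoid-responsive genes mostly higher means. Of 27 glucocorticoid-responsive genes, 5 were higher and 0 lower at an unadjusted p below 0.05, against 3.04% and 4.09% of all genes, 18 had a higher mean, and the median was 0.07. With single arrays left out this median ran from 0.02, without day 10 replicate 3, to 0.12, without day 10 replicate 2. They were Plin4, a lipid droplet protein (0.53 ± 0.20), Map3k6 (0.27 ± 0.09), Cebpd (0.27 ± 0.11), the metallothionein Mt1 (0.16 ± 0.07, SE) and, named after its values were seen, Hif3a (0.34 ± 0.15). The count was 2 without day 10 replicate 3, 3 without day 10 replicate 5 or day 14 replicate 3, 3 in the earlier and 1 in the later run, and 1 without the 3 arrays that stood apart. Of 15 heat shock protein genes, 3 were lower (Fkbp4 by -0.22, Chordc1 by -0.27 and Hspa4l by -0.14) and 0 higher, 13 had a lower mean, and the median was -0.12. That count was 1 without day 10 replicate 5 and 5 without day 14 replicate 6 or day 17 replicate 4.

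Of 20 genes of the unfolded protein response, 1 was lower, the chaperone partner Dnajc3, whose day 10 levels of 8.07 to 8.18 lay above all day 14 levels of 7.88 to 8.03 (-0.14 ± 0.04, SE). The list's median was -0.05. At an unadjusted p below 0.05, 4.09% of all genes were lower. Of 19 cholesterol synthesis genes, 2 were lower (Cyp51 by -0.15 ± 0.06 and Msmo1 by -0.16 ± 0.07, SE), 17 had a lower mean, and the median was -0.09. That count was 1 without day 10 replicates 1 or 5 or day 14 replicates 2, 3 or 5, and 5 without day 14 replicate 1. Of 21 hypoxia-responsive and glycolytic genes, 0 were past that threshold and the median was 0.00.

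Markers of the tissue and its cells were read beside these values. All 14 hypothalamus markers were measured, 13 of them above the background, so that the labelled tissue carried its defining transcripts in both groups. They had a higher mean on day 14 in 13 of 14 genes, with a median of 0.11. All but Peg10 and Dlk1 also belong to the neuroendocrine or feeding peptide lists above, so these values largely repeat theirs. The mean over the list ran from 7.69 to 7.86 in the mice of day 10 and from 7.86 to 8.01 in those of day 14, overlapping through 1 mouse of each day. Neuron markers had a median of -0.02 over 11 genes. In bulk tissue, fewer cells of a type and less RNA per cell cannot be told apart.

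Oligodendrocyte markers were lower in the mean in 10 of 10 genes, 4 of them at an unadjusted p below 0.05, with a median of -0.21. Over all genes 53.5% had a lower mean and 4.09% were lower at that threshold. The list mean was 8.89, 8.79, 8.27, 8.75 and 8.64 in the mice of day 10 and ran from 8.30 through 8.42 to 8.69 on day 14, so that day 10 replicate 3 was the lowest mouse of all 12. The count was 9 without that mouse, 7 without day 14 replicate 1, and 2 without day 10 replicates 1 or 2 or day 14 replicate 3. Ugt8a, the enzyme of myelin galactolipid synthesis, was at 8.87, 8.77, 8.50, 8.78 and 8.80 on day 10 and ran from 7.94 through 8.40 to 8.62 on day 14, a difference of -0.40 ± 0.12 (SE) with overlapping groups. Cnp (-0.21), Mag (-0.26) and Mog (-0.23) were the other members of the 4.

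Of 13 astrocyte and tanycyte markers, 3 were lower and 0 higher, the water channel gene Aqp4 (-0.35 ± 0.10), Gfap (-0.27 ± 0.10) and the connexin gene Gja1 (-0.15 ± 0.05, SE), and the list's median was -0.07. Of 14 microglia markers, 1 was lower (C1qa by -0.16), 13 had a lower mean, and the median was -0.07. Among all genes 4.09% were lower at an unadjusted p below 0.05 and 53.5% had a lower mean. Thalamus markers, which show neighbouring tissue, had a median of 0.02 over 16 genes with 0 past an unadjusted p of 0.05, and 1 mouse of day 14, replicate 2, stood apart with a list mean of 8.12 against 7.32 to 7.46 in the other mice of its day. With the thalamus list as a covariate the Nr4a3 difference was -0.67 (limma adjusted p = 0.00691). Without day 14 replicate 2 it was -0.70 (limma adjusted p = 0.00378).

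Red cell markers had higher values on day 14. Of 12 genes in the list 3 were measured here, 2 were higher at an unadjusted p below 0.05, and none was called. Among all genes 3.04% were higher at that threshold. Alas2, the heme synthesis enzyme of red cell precursors, was at 6.10, 5.85, 6.68, 7.10 and 5.80 on day 10 and ran from 6.48 through 7.36 to 7.85 on day 14. The groups overlapped, and the difference of 0.99 ± 0.31 (SE, limma adjusted p = 0.516) was the largest of the 18820 genes. Slc4a1, the red cell anion exchanger, was at 5.15, 5.11, 5.20, 6.51 and 5.24 on day 10 and ran from 5.13 through 6.01 to 7.03 on day 14, a difference of 0.68 ± 0.32 (SE), and Epb42 differed by 0.03 ± 0.11 (SE) below the background. The count was 1 without any one of day 10 replicates 1, 2, 3 or 5 or day 14 replicates 1, 2 or 5.

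The same mice were extreme in the red cell genes Alas2 and Slc4a1. They were also extreme in 3 of the 4 interferon-stimulated genes that were higher at an unadjusted p below 0.05. For Alas2, Slc4a1, Isg20, Ube2l6, Rsad2 and Tent5c (0.82 ± 0.26, SE, a poly(A) polymerase gene named after its values were seen), day 10 replicate 4 was the highest mouse of its day, day 14 replicate 6 the lowest of its day and day 14 replicate 5 the highest. The remaining red cell marker, Epb42, was also highest on day 10 in replicate 4 (3.74). On day 14 Epb42 was lowest in replicate 7 (3.29) and highest in replicate 1 (3.91). Ifit2, the other of the 4 interferon-stimulated genes, had its highest mouse of day 10 in replicate 2 (6.06). On day 14 its lowest was replicate 4 (5.91) and its highest replicate 3 (6.31). The pattern was not confined to genes with higher values. Cxcl9, lower in the mean on day 14, was at 4.97 in day 10 replicate 4. It was at 3.40 in day 14 replicate 6 and 5.01 in day 14 replicate 5. Iigp1 and Ifitm3, also lower in the mean, had the same extreme mice, and others such as Oas2 did not. Isg20 was at 6.13, 5.88, 6.12, 6.68 and 6.08 on day 10 and ran from 6.27 through 6.74 to 7.45 on day 14. Rsad2 was at 5.77, 5.59, 6.07, 6.84 and 5.41 on day 10 and ran from 5.74 through 6.59 to 7.25 on day 14. The red cell list mean ran from 4.82 to 5.78 on day 10 and from 4.99 to 6.22 on day 14. Its part in these genes was not tested.

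**Figure D5:**
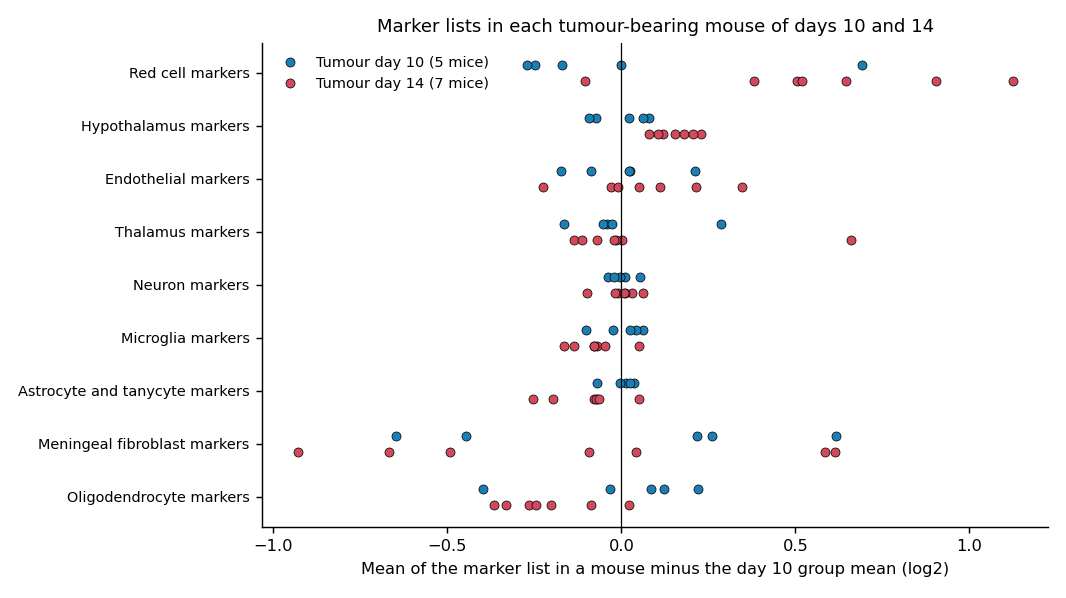
Mean of 9 marker lists in each mouse of tumour day 10 (blue, 5 mice) and day 14 (red, 7 mice), as the difference from the day 10 group mean (log2). Hypothalamus markers lie higher and oligodendrocyte markers lower on average on day 14, each with overlapping groups, and red cell markers higher in 6 of 7 mice of day 14 than in 4 of 5 mice of day 10.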

How the data were processed

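The values deposited by the authors were log2 values of 35556 probe sets on 22 arrays, for which the submitters' processing notes name RMA, a method that corrects background, normalizes between arrays and summarizes probes. Its version and the genome build are not given in the sources used here. Platform annotation paired 21218 probe sets with 1 gene, 1881 with several and 12457 were unnamed. Entrez identifiers matched 21185 in the RefSeq table (GRCm38.p6) and changed 0 symbols. Of 18820 genes, 1386 had several probe sets. Agrp and Pmch were not analysed here. No low-value filter was applied. The background, 3.87, was the 95th percentile over 1180 probe sets of olfactory and vomeronasal receptors, exceeded by 13789 genes on average. The array medians were 5.27 to 5.34 and array correlations from 0.980 to 0.995, and 0 pairs were identical. The number of arrays limits precision.

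limma 3.58.1 in R 4.3.3 (lmFit, eBayes without trend) fitted 4 group means to all 22 arrays (18 residual degrees of freedom). The contrast was day 14 minus day 10, two-sided, Benjamini-Hochberg over 18820 genes, called at an adjusted p below 0.05. Controls and day 17 mice contributed only to the spread. The labels describe separate mice. Errors are SE of differences and SD of groups. Tested on simulated data for this comparison (18820 genes, 200 changed), the fit recovered 83.0% of changes of 0.5 and 99.5% of changes of 1. Recovery with fewer changed genes was not tested. In the measured arrays Alas2 (0.99 ± 0.31, SE) and Tent5c (0.82 ± 0.26, SE) were not called, each with a limma adjusted p of 0.516. Named were called genes, the 12 smallest p in each direction, up to 4 per list by smallest p, and Nr4a1, Nr4a2, Nr4a3, Npy, Pomc, Cartpt, Hcrt, Ghsr, Ghrh, Lcn2 and Tph2; predicted genes and olfactory, vomeronasal and taste receptors were counted only. The members, 18 process lists, 15 marker lists and the 8 genes of the permutation tests were chosen with earlier results of these data known. Alternatives changed the arrays in the fit, variance moderation, array weights, scaling, filter, probe set rule, threshold, replicate block, run of accessions and thalamus markers, and left out each array.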

Additional observations from a re-analysis of the deposited data

Results flagged for a closer look

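Among 134 groups of values tested for 1 mouse far from the others, 6 were marked, where chance alone marks about 1 in 20 (6.7 here). Hcrt was far below the other mice of its day in day 10 replicate 3 (9.17, the others 10.16 to 10.55) and in day 14 replicate 3 (9.33, the others 9.97 to 10.42). Day 10 replicate 3 was also far above in the mean of the feeding and metabolic receptor genes (6.31, the others 6.18 to 6.20). Day 10 replicate 4 was far above in the mean of the red cell markers (5.78, the others 4.82 to 5.09). Day 14 replicate 2 was far above in the mean of the thalamus markers (8.12, the others 7.32 to 7.46). Day 10 replicate 5 was above in the mean of the oxidative phosphorylation genes (9.05, the others all 9.02), a small distance on the log2 scale.

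The Nr4a3 steps differed between the intervals: the step from day 10 to day 14 minus that from day 14 to day 17 was -1.06 (limma adjusted p = 0.00790).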

How the results depend on the processing

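Of 2039 values recomputed under alternatives for 80 results, 1985 were marked as kept. For tests and single genes, kept meant the same direction and the same side of the threshold. For counts it meant a ratio to the main count within a set limit. For list medians it meant a move smaller than the SD of the list mean between mice. A median could therefore change sign and be marked as kept, as for meningeal fibroblast markers (-0.26 to 0.01 with single arrays left out). The count of genes called on day 14 against day 10 was 0 with the 12 arrays of the 2 days only, in the earlier run alone, in the later run alone and, in a setting chosen after seeing the data, without the 3 arrays that stood apart (Nr4a3 adjusted p = 0.167, 0.796, 0.457 and 0.0816 in limma, with 1184, 1057, 1222 and 1757 genes at an unadjusted p below 0.05, against 1341 with all arrays). Of these, the 2 runs and the reduced sets have fewer arrays. The count for the difference of the 2 steps was 0 with array weights, and the cause was not tested. With single arrays left out both counts stayed at 1. The exact permutation adjusted p with single mice left out ran from 0.0173 to 0.0346 for Nr4a3, 0.0364 to 0.396 for Npy, 0.745 to 0.980 for Nr4a1, 0.650 to 0.983 for Hcrt, 0.398 to 0.980 for Cartpt and 0.690 to 0.989 for Lcn2. The median of the neuroendocrine genes ran from 0.0604 to 0.1322. The difference changed sign for Nr4a1 with a second quantile normalization (-0.0008), in the later run (-0.0936) and without the 4 arrays highest in thalamus markers (-0.0892), for Cartpt with array weights (0.0667) and without the 3 arrays (0.0994), for Hcrt in the earlier run (-0.31), without the 4 arrays (-0.0094) and without the 3 (-0.18), for Lcn2 with array weights (-0.20), in the later run (-0.0118) and without the 3 (-0.11), and for Tph2 in the earlier run (0.0148). The causes were not tested. With single arrays left out the difference ran from -0.0892 to 0.11 for Nr4a1, from -0.1304 to 0.0415 for Cartpt, from -0.0848 to 0.0040 for Tph2, from -0.21 to 0.16 for Hcrt and from -0.23 to 0.26 for Lcn2. Same-numbered mice of days 10 and 14 deviated together with correlations of 0.177, 0.142, 0.0147, 0.00079 and 0.125, so the numbers were not taken to pair them, and with the replicate number as a block Nr4a3 differed by -0.71 (limma adjusted p = 7.13e-05).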

Other observations

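Other gene groups lay close to the median of all genes. Of 19 circadian clock genes, Cry1 (0.21 ± 0.08) and Per2 (0.13 ± 0.06) were higher and Nfil3 (-0.24 ± 0.08, SE), a repressor in the clock's output, was lower at an unadjusted p below 0.05, with a median of 0.04. Nfil3 was at 6.03, 5.66, 5.90, 5.94 and 5.92 on day 10 and ran from 5.46 through 5.68 to 5.75 on day 14. The count of higher clock genes was 5 without day 14 replicate 1, 4 without day 10 replicate 2 and 1 without day 10 replicate 3 or day 14 replicate 7. Of 33 GABA and glutamate receptor genes 1 was higher, the kainate receptor gene Grik4 (0.16 ± 0.05, SE), 25 had a higher mean and the median was 0.04. Of 66 cytosolic ribosomal protein genes 1 was higher (Rpl12, 0.12 ± 0.05), 48 had a higher mean and the median was 0.03. At that threshold 3.04% of all genes were higher and 4.09% lower. The counts of the receptor, ribosomal and oxidative phosphorylation lists do not exceed these shares. Of 67 oxidative phosphorylation genes 2 were lower (Atp5c1 by -0.13 and Atp5j2 by -0.12), and the median was -0.00. That count was 4 without day 14 replicate 6 and 1 without day 10 replicate 5, control replicate 2 or any one of day 14 replicates 2, 3, 5 or 7.

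Some of the largest differences came with a wide spread between mice. Slc6a3, the dopamine transporter gene, differed by -0.82 ± 0.82 (SE), with levels of 10.28, 6.48, 6.48, 9.32 and 8.62 on day 10 and from 5.78 through 6.36 to 9.53 on day 14. Chrna6, a nicotinic receptor subunit gene, differed by -0.65 ± 0.57 (SE), and the pituitary hormone genes Cga and Gh by -0.58 ± 0.61 and 0.55 ± 0.59 (SE). These genes were named after their values were seen. Meningeal fibroblast markers were lower in the mean in 11 of 12 genes, with a median of -0.13. With single arrays left out, 6 to 12 genes had a lower mean and the median ran from -0.26 to 0.01, turning positive without day 10 replicate 4. The list mean ran from 5.74 to 7.01 on day 10 and from 5.46 to 7.00 on day 14. The median was 0.08 for endothelial, 0.05 for pericyte and smooth muscle, 0.02 for ependymal, 0.03 for choroid plexus, 0.02 for pituitary and -0.03 for cortex and striatum markers. Circulating leukocyte markers had a median of -0.04 over 14 genes, 1 of them above the background.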
